A study of Mus musculus with 9 samples.

Results

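The Toll-like receptor (TLR) genes and Cd14 were followed in mouse BMDC, dendritic cells derived from bone marrow, which present antigens to T cells. Cells were untreated or had received lysophosphatidic acid (LPA) for 2 h or 6 h; LPA is a lipid signal sensed by its own G protein-coupled receptors. Each of the 3 groups held 3 RNA-seq libraries. The labels name no mouse strain, genotype, sex or age, no agent other than LPA, no LPA dose or vehicle, and no time for the untreated cells. The members were 9 TLR genes (Tlr1, Tlr2, Tlr3, Tlr4, Tlr6, Tlr7, Tlr8, Tlr9 and Tlr13) and Cd14, taken as the rows of the count table whose transcript identifiers mapped to these symbols. Each of the 10 members had 1 row among the 38887 rows of the table. All 10 passed the filter on low counts, which left 14363 rows for testing.

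TLRs are membrane receptors with a leucine-rich repeat ectodomain that binds microbial molecules and a cytoplasmic TIR domain that recruits adaptor proteins, among them MyD88 and TRIF. Tlr1, Tlr2, Tlr4 and Tlr6 encode receptors of the cell surface, and Cd14 encodes a surface protein that passes lipopolysaccharide to the Tlr4 complex. Tlr3, Tlr7, Tlr8, Tlr9 and Tlr13 encode receptors of endosomes, where nucleic acids are sensed. In dendritic cells TLRs trigger cytokine and type I interferon production and maturation.

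Upstream sequence is shown for Tlr1, Tlr6, Tlr2 and Tlr9. Tlr1 had the largest fall of the members, Tlr6 is its neighbour and the alternative partner of Tlr2, Tlr2 was higher at 2 h, and Tlr9 had the largest fall of the endosomal members at 2 h. The sequences come from RefSeq windows of GRCm38.p6, from 250 bases before to 50 bases after a gene's start, and only the stretch outside annotated exons is printed, 5′ to 3′. Capitals mark motif matches on either strand.
Tlr1, chr5:64933564-64933808, minus strand: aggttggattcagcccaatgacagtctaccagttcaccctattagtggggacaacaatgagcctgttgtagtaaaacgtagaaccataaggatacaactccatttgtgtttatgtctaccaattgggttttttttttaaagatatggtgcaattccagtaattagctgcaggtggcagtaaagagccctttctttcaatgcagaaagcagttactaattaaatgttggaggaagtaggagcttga
Tlr6, chr5:64959167-64959416, minus strand: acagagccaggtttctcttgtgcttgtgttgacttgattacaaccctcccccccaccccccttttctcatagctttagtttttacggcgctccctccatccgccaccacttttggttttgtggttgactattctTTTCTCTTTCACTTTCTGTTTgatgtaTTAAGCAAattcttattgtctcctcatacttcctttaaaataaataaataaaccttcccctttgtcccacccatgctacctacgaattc
Tlr2, chr3:83841768-83841858, minus strand: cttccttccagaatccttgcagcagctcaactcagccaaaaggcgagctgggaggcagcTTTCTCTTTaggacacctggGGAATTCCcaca
Tlr9, chr9:106222348-106222597, plus strand: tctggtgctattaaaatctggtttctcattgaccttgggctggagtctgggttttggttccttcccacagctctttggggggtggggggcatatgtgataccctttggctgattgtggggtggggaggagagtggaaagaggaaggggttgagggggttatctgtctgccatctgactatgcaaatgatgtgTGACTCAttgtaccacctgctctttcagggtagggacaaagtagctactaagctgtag
The motifs searched were ISRE (GAAA and GAAA with 2 bases between), bound by interferon regulatory complexes, NF-kB (GGG and TTTCC with 2 bases between), AP-1 (TGANTCA), CRE (TGACGTCA), the PU.1 and IRF composite EICE (GGAA and GAAA with 2 bases between), CEBP (TTGCNNAA) and PU.1 (AGAGGAAGT). The letters AAANNGAAA, a shorter ISRE, and GGAATTCC, a palindromic NF-kB form, were added after the windows had been seen. The shorter ISRE lies inside the longer ISRE, so these matches overlap. Shares were taken over 32851 whole windows of 300 bases, which are longer than the printed stretches of 91 to 250 bases. Of these windows, 3.44% held the ISRE, 10.6% its shorter form, 10.8% CEBP, 7.81% AP-1, 1.63% NF-kB and 0.478% the palindromic form. CRE was found in 1.79%, EICE in 2.72% and PU.1 in 1% of windows. The Tlr6 stretch held overlapping ISRE matches and a CEBP match. The Tlr2 stretch held the shorter ISRE and the palindromic NF-kB form, and the Tlr9 stretch held AP-1. None of these letters was in the Tlr1 stretch, nor in the rest of its 2 windows. For Tlr6 the RefSeq start used lies inside the annotated gene, 931 bases downstream of its outermost annotated start. The other Tlr6 window, whose start lies 49 bases from that outermost start, held none of the motifs and is not printed. A match is a description of the letters and says nothing of binding. Windows were used for 7 of the 10 members, and among those not printed Tlr3 held NF-kB, CEBP and the shorter ISRE, while Tlr8 and Tlr13 held CEBP. These matches are over whole windows. The NF-kB and CEBP matches of Tlr3 lay outside the stretch free of exons. The Tlr13 match (bases 1 to 8) and a Tlr8 match (bases 19 to 26) lay after the start.

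Library totals ran from 29628817 to 84596899 counts, and no library was a repeat of another. Levels are given as CPM, counts scaled to a common library size after TMM correction. Differences are log2 fold changes ± SE from the quasi-likelihood test of edgeR, with Benjamini-Hochberg adjusted p-values over all 14363 rows, and an adjusted p under 0.05 counted as passing. Whether replicates are separate animals or cultures is not stated in the labels, and p-values therefore cover the spread between these libraries alone, which may be technical. Both comparisons with untreated cells use the same 3 untreated libraries. The BMDC label was set against marker lists. The 12 conventional dendritic cell markers summed to 6933 to 8002 CPM in untreated cells, 7456 to 8223 CPM at 2 h and 6445 to 7078 CPM at 6 h. A few genes carried that sum. In untreated cells Cd74 averaged 3597 CPM, and Itgax, H2-Aa, H2-Ab1 and Ccr7 lay between 338 and 1361 CPM. Clec9a, Dpp4, Zbtb46, Batf3, Flt3, Xcr1 and Cd209a lay between 0.0151 and 38.9 CPM there. The 12 macrophage and monocyte markers were also high, at 4102 to 4108.5 CPM in untreated cells, 4278 to 4388 CPM at 2 h and 4246 to 4442 CPM at 6 h. Csf1r made up much of that sum, with 2523 CPM at 2 h and 2629 CPM at 6 h, against 2251 CPM in untreated cells. Single markers moved: of the 12 macrophage and monocyte markers, 1 was higher and 3 lower at 2 h and 3 were higher and 7 lower at 6 h, among them Ccr2 (-2.53 on the log2 scale), Fcgr1 (-1.24) and Mertk (0.73). Of the 11 conventional dendritic cell markers tested, 2 were higher and 1 lower at 2 h, and 2 were higher and 4 lower at 6 h. Of all rows tested, 19.3% were called higher and 19.2% lower at 2 h, and 26.4% higher and 25.7% lower at 6 h. The 7 B cell markers summed to at most 0.441 CPM in any library, and the T and natural killer cell, neutrophil, mast cell and stromal lists lay between 0.234 and 24.4 CPM in sum. In bulk RNA, fewer cells of a type and less RNA per cell cannot be told apart. The part of these cell types in the results below was not tested.

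The members did not move as a block. At 2 h of LPA, Cd14, Tlr2 and Tlr4 rose, 6 members fell and Tlr6 did not pass the test. At 6 h, Cd14 and Tlr4 were higher than in untreated cells, 7 members were lower and Tlr2 did not pass. With the replicate number as a block, 8 members were lower at 6 h, Tlr2 included. The labels state no pairing, and deviations of same-numbered libraries at 6 h and in untreated cells correlated weakly (0.133 to 0.16). All 5 endosomal receptors were lower at both times. The background was high: 19.3% of all rows tested were called higher and 19.2% lower at 2 h, and 26.4% higher and 25.7% lower at 6 h. The median log2 fold change of the 10 members was -0.23 at 2 h and -0.32 at 6 h, where the medians of all rows tested were 0.00 and 0.01. Calls of at least 2-fold were fewer, with 2.88% of rows called higher and 1.46% lower at 2 h, and 3.45% higher and 4.48% lower at 6 h. Cd14 was the 1 member at least 2-fold higher and Tlr1 the 1 member at least 2-fold lower, at both times. The groups did not overlap for 8 members at 2 h and for 10 at 6 h, against 48.2% and 63.0% of all rows tested.

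**Figure D1:**
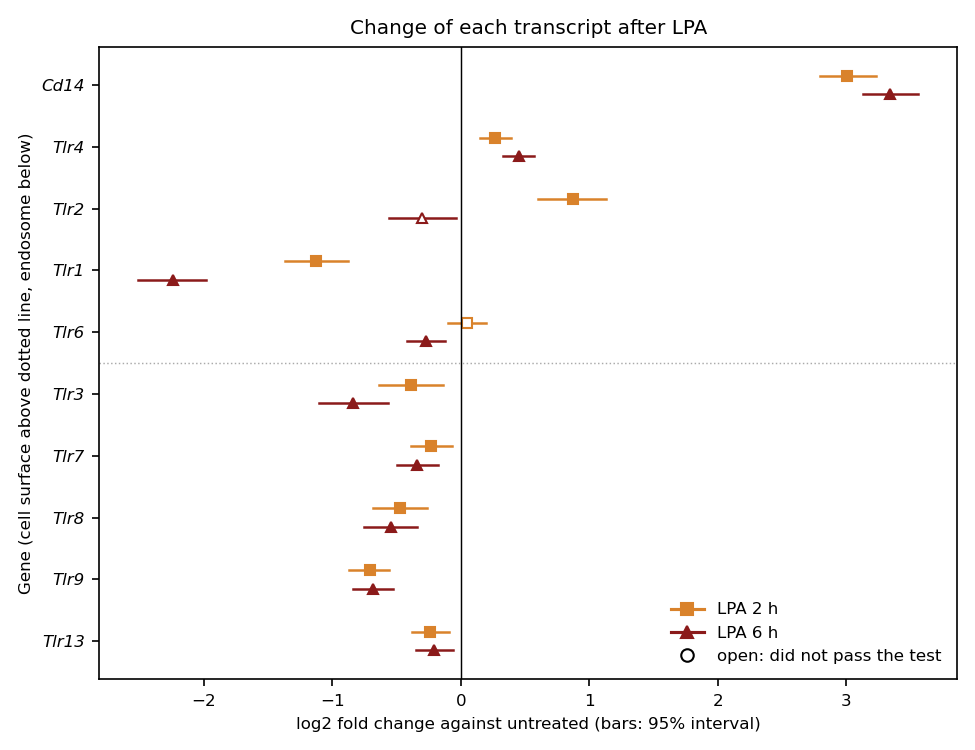
Log2 fold change of the 10 members at LPA 2 h and LPA 6 h against untreated cells (x axis), with points for the estimates and bars for 95% intervals. Cd14 stands at 3.01 and 3.34 on the right, Tlr1 at -1.13 and -2.24 on the left, and the other members lie between -0.84 and 0.87.

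Cd14 gave the largest change. It measured 105.5, 116.9 and 95.7 CPM in the 3 untreated libraries, 900.3, 929.5 and 738.4 CPM after 2 h, and 1060.9, 1116.2 and 1057.1 CPM after 6 h. Every LPA library lay far above every untreated library, and the 6 h libraries lay above those of 2 h. Cd14 was 8.07-fold higher at 2 h (log2 fold change 3.01 ± 0.10, adjusted p = 1.22e-08) and 10.2-fold higher at 6 h (3.34 ± 0.10, adjusted p = 7.81e-09). Between the times it was 0.33 ± 0.09 higher at 6 h than at 2 h (adjusted p = 0.01). By p-value it ranked 10th of 14363 rows at 2 h and 6th at 6 h.

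Tlr4, the receptor that senses lipopolysaccharide with Cd14 and MD-2, rose by far less. It measured 72.3, 62.9 and 66.8 CPM in untreated cells, 78.8, 81.9 and 82.4 CPM at 2 h, and 96.3, 90.9 and 88.3 CPM at 6 h. No library of any group overlapped with those of another. The log2 fold change was 0.27 ± 0.06 at 2 h (adjusted p = 0.00216) and 0.45 ± 0.06 at 6 h (adjusted p = 3.04e-05). The step between the times, 0.18 ± 0.05 (adjusted p = 0.0166), no longer passed without LPA 2 h replicate 1 (adjusted p = 0.0687) or without LPA 6 h replicate 1 (adjusted p = 0.0828). Within single libraries, the ratio of Cd14 to Tlr4 counts was 11.4, 11.4 and 8.96 at 2 h and 11, 12.3 and 12 at 6 h, against 1.46, 1.86 and 1.43 in untreated cells.

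Ly96, which encodes MD-2, the lipopolysaccharide-binding partner of Tlr4, averaged 7.48 ± 0.289 CPM at 2 h and 8.45 ± 0.212 CPM at 6 h, against 7.40 ± 0.191 CPM in untreated cells (SD, n = 3 each). Its log2 fold change was 0.02 ± 0.07 at 2 h (adjusted p = 0.881) and 0.19 ± 0.07 at 6 h (adjusted p = 0.0377). Cd180, a TLR-like surface protein without a TIR domain, fell by 0.44 ± 0.06 at 2 h (adjusted p = 0.000114) and by 0.42 ± 0.06 at 6 h (adjusted p = 0.000101). Its partner Ly86 (MD-1) differed by 0.08 ± 0.07 and -0.12 ± 0.07 and passed at neither time (adjusted p = 0.424 and 0.17). Cd14, Tlr4 and these accessory genes thus gave changes of different size and sign.

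Tlr2, which pairs with Tlr1 or Tlr6 to sense bacterial lipopeptides, was higher at 2 h than in untreated cells and lower at 6 h than at 2 h. It measured 163.6, 146.6 and 137.5 CPM in untreated cells, 303.4, 219.8 and 292.6 CPM at 2 h, and 127.0, 119.5 and 116.6 CPM at 6 h. The 2 h libraries were all above the untreated ones, and the 6 h libraries were all below them. At 2 h Tlr2 was 1.82-fold higher (log2 fold change 0.87 ± 0.12, adjusted p = 0.000362). At 6 h the difference from untreated cells, -0.30 ± 0.12 with a 95% interval of -0.56 to -0.04, missed the threshold (adjusted p = 0.0541). With the replicate number as a block it passed (-0.30, adjusted p = 0.0268), and it also passed without LPA 2 h replicate 1 (adjusted p = 0.04), LPA 2 h replicate 2 (0.00076) or untreated replicate 3 (0.0484). It passed too when only the 6 libraries compared were fitted (0.00185), with limma-voom (0.038), with upper quartile scaling (0.0499) and with DESeq2. Under the other 11 of 19 alternatives it missed the threshold. From 2 h to 6 h Tlr2 fell by 1.17 ± 0.12 on the log2 scale (adjusted p = 8.92e-05). At 6 h against 2 h, 6 of 10 members passed, 2 higher and 4 lower, where 24.3% of all rows were called higher and 24.4% lower. Tlr1 and Tlr2 were the members at least 2-fold lower at 6 h than at 2 h, where 3.43% of all rows were called at least 2-fold lower and 1.14% at least 2-fold higher. The 6 h and 2 h libraries did not overlap for 5 members, and for 58.9% of all rows.

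Tlr1, the partner of Tlr2 for triacylated lipopeptides, had the largest fall. It measured 26.2, 28.2 and 29.0 CPM in untreated cells, 11.7, 11.2 and 15.5 CPM at 2 h, and 5.98, 6.32 and 5.36 CPM at 6 h. The 3 groups were fully separate, with each later group lower. Tlr1 fell by 1.13 ± 0.11 at 2 h (adjusted p = 1.53e-05) and by 2.24 ± 0.12 at 6 h (adjusted p = 1.55e-07), which is 4.74 times lower. The step between the times was -1.12 ± 0.12 (adjusted p = 5.5e-05).

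Tlr6, the partner of Tlr2 for diacylated lipopeptides, lies beside Tlr1 on the minus strand of chromosome 5 (Tlr1 at chr5:64924679-64933563, Tlr6 at chr5:64952031-64960097, GRCm38). It measured 20.7, 19.5 and 18.9 CPM in untreated cells, 19.7, 19.2 and 22.4 CPM at 2 h, and 17.1, 16.03 and 15.98 CPM at 6 h. The 2 h libraries overlapped with the untreated ones, and the 6 h libraries were below both. At 2 h the difference was 0.05 ± 0.07, with a 95% interval of -0.10 to 0.20 (adjusted p = 0.595), and at 6 h it was -0.27 ± 0.07 (adjusted p = 0.00605). From 2 h to 6 h Tlr6 fell by 0.32 ± 0.07 (adjusted p = 0.00234). Of the 50-base words of the Tlr1 transcript searched, 15.3% also occur in Tlr6, and of those of Tlr6 12.6% occur in Tlr1 or Ctsq. The counts of both depend in part on how the authors' counting divided such reads.

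Counts set against each other within a library gave the balance of the Tlr2 partners. The ratio of Tlr1 to Tlr6 counts was 0.591, 0.584 and 0.693 at 2 h and 0.35, 0.394 and 0.335 at 6 h, against 1.26, 1.44 and 1.54 in untreated cells. The ratio of Tlr6 to Tlr2 counts was 0.0651, 0.0872 and 0.0766 at 2 h and 0.134, 0.134 and 0.137 at 6 h, against 0.127, 0.133 and 0.137 in untreated cells. The ratio of Tlr1 to Tlr6 was thus lower in each LPA library than in each untreated library, while the ratio of Tlr6 to Tlr2 at 6 h overlapped with that in untreated cells. The ratios are a description, since an exact two-sided permutation test of 3 libraries against 3 cannot give a p under 0.1. They carry no correction for transcript length, which cancels between groups. The ratio of Tlr1 to Tlr6 also depends in part on how reads from sequence shared by these 2 genes were divided.

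**Figure D2:**
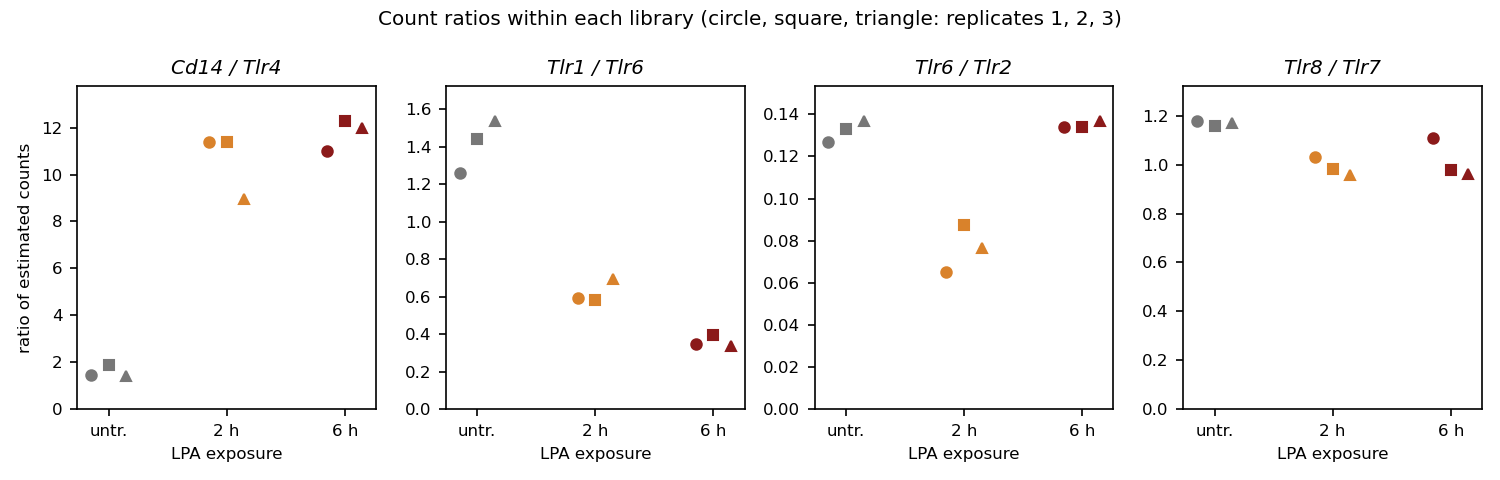
Ratios of estimated counts within each library (y axes, linear from 0) for Cd14 over Tlr4, Tlr1 over Tlr6, Tlr6 over Tlr2 and Tlr8 over Tlr7 in untreated cells, LPA 2 h and LPA 6 h (x axes), with a point for each library. Tlr1 over Tlr6 lies at 1.26 to 1.54 in untreated cells and at 0.335 to 0.394 at 6 h, while Tlr6 over Tlr2 returns at 6 h to 0.134 to 0.137.

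Among the endosomal receptors, Tlr9 had the largest fall at 2 h and Tlr3 at 6 h. Tlr9, which senses unmethylated CpG DNA, measured 20.8, 21.1 and 21.2 CPM in untreated cells, 11.8, 12.5 and 14.3 CPM at 2 h, and 12.5, 13.0 and 13.7 CPM at 6 h. All LPA libraries were below all untreated ones, and the 2 times overlapped. Tlr9 fell by 0.71 ± 0.07 at 2 h (adjusted p = 1.02e-05) and by 0.68 ± 0.07 at 6 h (adjusted p = 8.54e-06), and the times differed by 0.03 ± 0.07 with a 95% interval of -0.13 to 0.19 (adjusted p = 0.772). Plasmacytoid dendritic cells, which are rich in Tlr7 and Tlr9, are another cell type that bone marrow cultures can hold. Their 8 markers summed to 304 to 338 CPM in untreated cells, 280 to 353 CPM at 2 h and 186 to 212 CPM at 6 h. Most of that sum was Bst2, which interferon also induces, with 265 CPM at 2 h and 160 CPM at 6 h, against 284 CPM in untreated cells. The defining marker Siglech was at or near 0 in all groups (0.0171 CPM at 2 h and 0 at 6 h, against 0.0221 CPM in untreated cells), and Ly6d was at 0.0151 CPM in untreated cells and 0 at 6 h. Of the 6 markers tested, 1 was higher and 5 did not pass at 2 h, and 3 were lower and 3 did not pass at 6 h. The 1 higher at 2 h was Tcf4, by 0.40 ± 0.07 (adjusted p = 0.000521), with 42.3 CPM against 32.0 CPM in untreated cells. At 6 h Tcf4 differed by 0.14 ± 0.07 and did not pass (adjusted p = 0.112). The 3 lower at 6 h were Bst2 (-0.83 on the log2 scale), Ccr9 (-0.89) and Pacsin1 (-0.69). Of all rows tested, 19.3% were called higher at 2 h and 25.7% lower at 6 h.

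Tlr3, a receptor for double-stranded RNA that signals through TRIF, went lower with time. It measured 11.4, 10.6 and 11.4 CPM in untreated cells, 8.86, 6.93 and 9.85 CPM at 2 h, and 7.06, 5.88 and 5.92 CPM at 6 h. The untreated libraries were above all others, while 1 library of 2 h overlapped with those of 6 h. Tlr3 fell by 0.39 ± 0.12 at 2 h (adjusted p = 0.0196) and by 0.84 ± 0.12 at 6 h (adjusted p = 0.000117), and from 2 h to 6 h it fell by 0.45 ± 0.12 (adjusted p = 0.0096). The 2 h call was lost without untreated replicate 1 (adjusted p = 0.0587) or untreated replicate 3 (adjusted p = 0.0641). An antisense gene, Gm45542, overlaps Tlr3 exons, and in these non-stranded libraries its reads cannot be told apart from those of Tlr3.

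Tlr7 and Tlr8, which sense single-stranded RNA and its breakdown products, lie next to each other on the minus strand of the X chromosome. Tlr7 measured 130.3, 106.7 and 118.4 CPM in untreated cells, 102.1, 92.2 and 108.6 CPM at 2 h, and 95.9, 91.6 and 93.5 CPM at 6 h. The 2 h libraries overlapped with the untreated ones and the 6 h libraries did not. Tlr7 fell by 0.23 ± 0.07 at 2 h (adjusted p = 0.0265) and by 0.34 ± 0.07 at 6 h (adjusted p = 0.00228). Its 2 h call was lost without untreated replicate 1 (adjusted p = 0.115), untreated replicate 3 (0.0683), LPA 2 h replicate 1 (0.0608) or LPA 2 h replicate 2 (0.0768), and when only the 6 libraries compared were fitted (0.0644).

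Tlr8 measured 153.8, 123.6 and 138.3 CPM in untreated cells, 105.3, 90.4 and 103.8 CPM at 2 h, and 105.95, 89.4 and 90.01 CPM at 6 h. All LPA libraries were below all untreated ones. It fell by 0.47 ± 0.09 at 2 h (adjusted p = 0.0026) and by 0.54 ± 0.09 at 6 h (adjusted p = 0.000728). The ratio of Tlr8 to Tlr7 counts was 1.03, 0.981 and 0.956 at 2 h and 1.11, 0.977 and 0.962 at 6 h, against 1.18, 1.16 and 1.17 in untreated cells, so it was lower in each LPA library. Between the times, Tlr7 differed by -0.11 ± 0.07 (95% interval -0.27 to 0.05) and Tlr8 by -0.07 ± 0.09 (-0.28 to 0.14), and neither passed (adjusted p = 0.25 and 0.566).

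Tlr13, a receptor of mice for bacterial ribosomal RNA, measured 291.9, 267.6 and 288.4 CPM in untreated cells, 219.5, 238.0 and 261 CPM at 2 h, and 261.6, 243.2 and 230.4 CPM at 6 h. All LPA libraries were below all untreated ones, by a narrow margin. It fell by 0.24 ± 0.07 at 2 h (adjusted p = 0.0137) and by 0.21 ± 0.07 at 6 h (adjusted p = 0.0213), with 0.03 ± 0.07 between the times (95% interval -0.11 to 0.18, adjusted p = 0.714). At 2 h the call was lost without untreated replicate 1 (adjusted p = 0.0548), untreated replicate 3 (0.0517) or LPA 2 h replicate 1 (0.0631). At 6 h it was lost without untreated replicate 1 (0.0734), untreated replicate 3 (0.0709), LPA 6 h replicate 2 (0.0614) or LPA 6 h replicate 3 (0.0984), and with scaling by total counts only (0.0574). The number of endosomal receptors called lower at 2 h was 2 without untreated replicate 1 or without untreated replicate 3, and 3 without LPA 2 h replicate 1, with all 5 fold changes below 0 in each case.

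**Figure D3:**
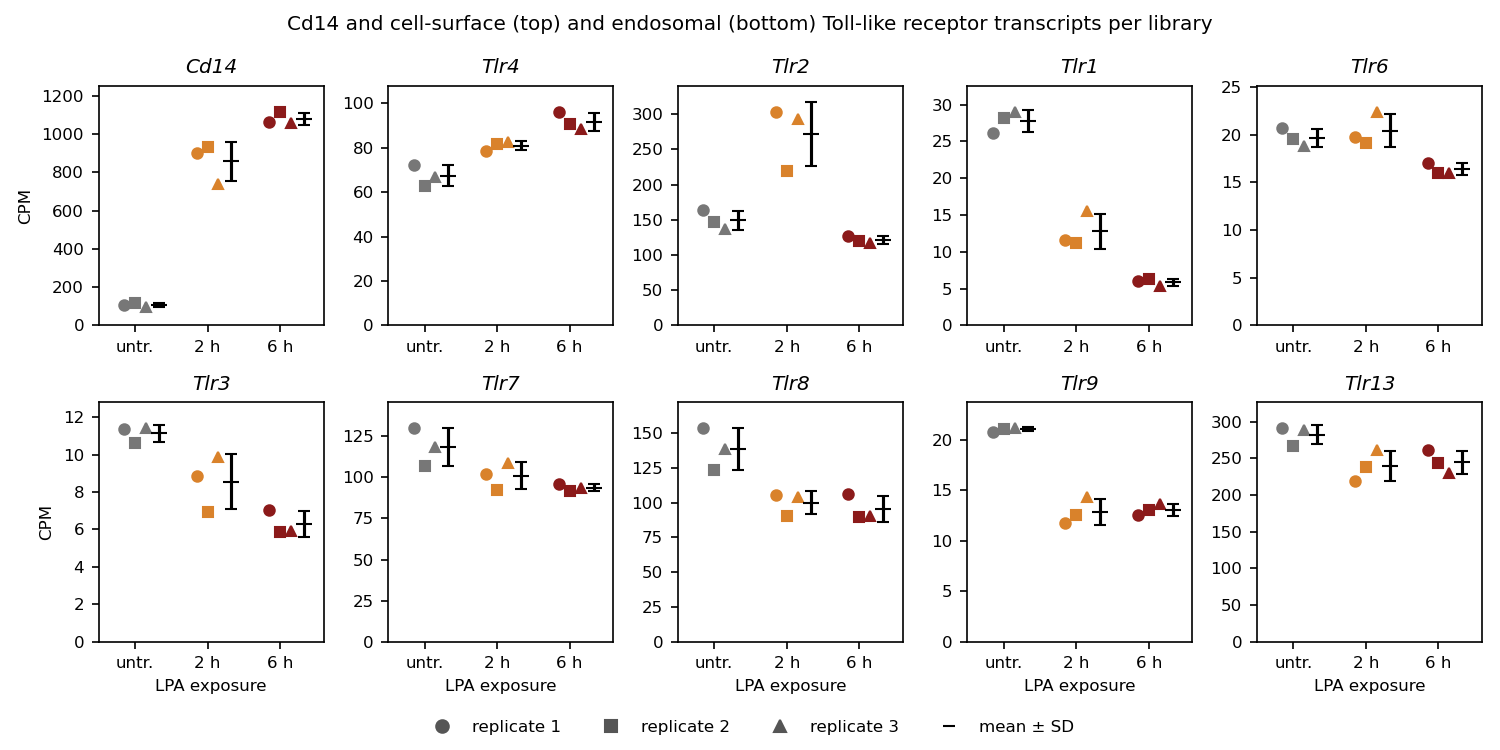
CPM of each member (y axes, linear from 0) in untreated cells, LPA 2 h and LPA 6 h (x axes), with a point for each of the 3 libraries and the mean ± SD beside them. Cd14 is at 738.4 CPM or more in every LPA library, Tlr2 is highest at 2 h, and Tlr1 drops to 5.36 to 6.32 CPM at 6 h.

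Levels of different genes were compared per kilobase of transcript, using the mean length of each gene's annotated transcripts. In untreated cells Tlr13 was highest at 128.6 ± 5.98 CPM per kilobase, ahead of Tlr8 (87.1 ± 9.50), Cd14 (64.6 ± 6.47), Tlr7 (58.5 ± 5.81), Tlr2 (49.5 ± 4.40) and Tlr4 (38.0 ± 2.66; SD, n = 3 each). Tlr1, Tlr9, Tlr6 and Tlr3 were far lower, at 9.99, 6.05, 5.36 and 2.62 CPM per kilobase. The libraries of Cd14 and Tlr7 overlapped, as did those of Tlr7 and Tlr2, while the other neighbours in this order were separate. At 2 h Cd14 led with 521.7 CPM per kilobase, and Tlr2 (90.2) stood above Tlr8 (62.8) and overlapped with Tlr13 (108.9). At 6 h Cd14 reached 656.95 CPM per kilobase, Tlr2 (40.2) was below Tlr7 (46.2), and Tlr1 (2.11) was below Tlr9 (3.76), with all neighbours in the 6 h order separate. With the longest transcript, Tlr2 was instead above Tlr7 at 6 h (40.2 against 24.0) and above Tlr13 at 2 h (90.2 against 59.0). With joined exons these values were 40.2 against 22.9 and 90.2 against 55.6. Among the 37776 rows of 1 gene, Cd14 ranked 157th at 2 h and 102nd at 6 h, against 1540th in untreated cells. These ranks depend on the length used: with the longest transcript they were 97th at 2 h and 63rd at 6 h, against 918th in untreated cells, and with joined exons 71st and 43rd, against 683rd.

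The order within the upper group depends on which transcript length is used. With the longest transcript, untreated cells gave 69.6 CPM per kilobase for Tlr13, 64.6 for Cd14, 49.5 for Tlr2, 40.4 for Tlr8, 30.4 for Tlr7 and 16.5 for Tlr4, so Cd14 and Tlr2 then stood above Tlr8. Tlr1, Tlr9, Tlr6 and Tlr3 remained the lowest 4 with either length. The position of Cd14 at the top of the LPA groups was the same with the mean, the longest and the joined exon length.

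**Figure D4:**
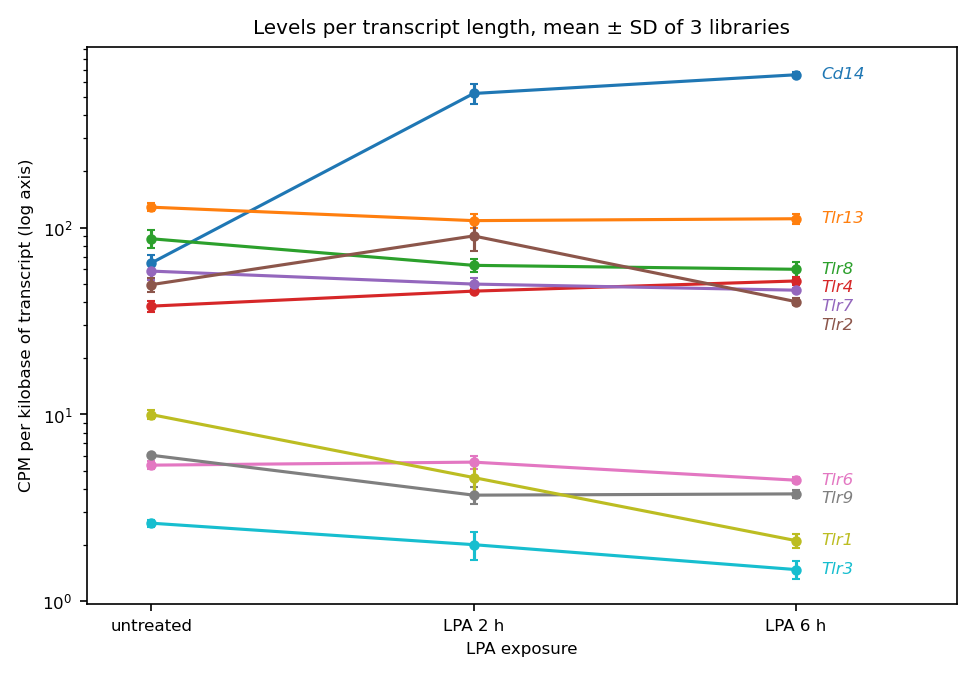
Level of each member in CPM per kilobase of mean transcript length (y axis, log scale) in untreated cells, LPA 2 h and LPA 6 h (x axis), with points for the mean and bars for the SD of 3 libraries. Cd14 moves to 656.95 CPM per kilobase at 6 h, against 64.6 in untreated cells, and Tlr1 to 2.11, against 9.99.

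The genes whose profile over the 9 libraries was nearest were looked up for the members changed at least 2-fold, by the root-mean-square difference of log2 CPM from the untreated mean among 9263 candidate genes. For Tlr1 the nearest was Ifi47, an interferon-inducible GTPase (0.13), with log2 fold changes of -0.95 at 2 h and -2.25 at 6 h. For Cd14 they were Sdcbp2 (0.28), with 3.42 and 3.26, and Tgm2, a transglutaminase (0.29), with 2.55 and 3.31. The nearest profile to Cd14 was thus less near than that to Tlr1.

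The other TLR genes of the mouse were at low levels. Tlr5, the flagellin receptor, measured 0.148, 0.106 and 0.126 CPM in untreated cells, 1.39, 1.23 and 1.46 CPM at 2 h, and on average 1.22 ± 0.178 CPM at 6 h. It rose by 3.41 ± 0.23 at 2 h (adjusted p = 4.65e-07) and by 3.25 ± 0.24 at 6 h (adjusted p = 6.14e-07). Its untreated libraries lay below the minimum of the filter on low counts, which the row passed only through the LPA libraries. The size of its change thus rests on few untreated reads. Tlr11, a receptor for the Toxoplasma protein profilin, fell by 1.53 ± 0.20 at 2 h (adjusted p = 6.72e-05) and by 2.65 ± 0.23 at 6 h (adjusted p = 1.74e-06), with 0.486 and 0.211 CPM against 1.39 CPM in untreated cells. Its 6 h libraries measured 0.164, 0.236 and 0.234 CPM, so the size of the 6 h fall rests on few reads. Tlr12, which works with Tlr11, differed by -0.70 ± 0.27 at 2 h and did not pass (adjusted p = 0.0574), and fell by 1.01 ± 0.28 at 6 h (adjusted p = 0.00954).

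Genes around the receptors were counted from lists. Of all rows tested, 19.3% were called higher and 19.2% lower at 2 h, and 26.4% higher and 25.7% lower at 6 h. These shares stand beside the counts of every list below, and counts near them are no result about a list. Of 8 tested co-receptors and accessory proteins, 2 were higher, 1 was lower and 5 did not pass at 2 h, and 3 were higher, 2 lower and 3 did not pass at 6 h (medians 0.05 and -0.11). Cd36, a scavenger receptor that works with Tlr2 and Tlr6, rose by 0.32 ± 0.05 at 2 h (adjusted p = 0.000588) and by 0.22 ± 0.05 at 6 h (adjusted p = 0.00499). Msr1, another scavenger receptor, differed by -0.22 ± 0.09 at 2 h and did not pass (adjusted p = 0.0667), and fell by 1.05 ± 0.09 at 6 h (adjusted p = 3.6e-06).

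Of 10 genes for folding and trafficking of TLRs, 2 were higher, 2 lower and 6 did not pass at 2 h, and 4 were higher, 3 lower and 3 did not pass at 6 h (medians -0.01 and 0.09). Unc93b1, which carries the endosomal TLRs out of the endoplasmic reticulum, differed by -0.08 ± 0.05 at 2 h (adjusted p = 0.195) and fell by 0.20 ± 0.05 at 6 h (adjusted p = 0.00417). Hsp90b1, the chaperone gp96 that folds TLRs, fell by 0.38 ± 0.07 at 6 h (adjusted p = 0.000508). Rab7b, a small GTPase of late endosomes, rose by 0.34 ± 0.05 and 0.37 ± 0.05 (adjusted p = 0.000125 and 3.48e-05), and Ap3b1, a subunit of the AP-3 sorting complex, fell by 0.18 ± 0.04 at 2 h (adjusted p = 0.00391). Of 10 endosomal processing genes, 2 were higher and 1 lower at 2 h, and 6 higher and 1 lower at 6 h (medians 0.10 and 0.25), with 7 and 3 that did not pass. Ctsl, a lysosomal protease, rose by 0.21 ± 0.05 and 0.50 ± 0.05 (adjusted p = 0.00539 and 4.71e-06), and Dnase2a, a lysosomal nuclease, rose by 0.47 ± 0.07 at 6 h (adjusted p = 0.000276). Pld4, a nuclease of endosomes, fell by 0.26 ± 0.08 at 2 h (adjusted p = 0.0304) and by 0.44 ± 0.08 at 6 h (adjusted p = 0.00112).

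Of 5 tested adaptors, 1 was higher and 3 were lower at 2 h, and 2 were higher and 2 lower at 6 h (medians -0.22 and 0.01). Myd88, the adaptor of most TLRs, fell by 0.36 ± 0.05 at 2 h (adjusted p = 0.000203) and by 0.22 ± 0.05 at 6 h (adjusted p = 0.0044). Tirap, which links Tlr2 and Tlr4 to Myd88, rose by 0.44 ± 0.06 at both times (adjusted p = 9.49e-05 and 5.93e-05), and Ticam1, which encodes TRIF, rose by 0.58 ± 0.07 at 6 h (adjusted p = 2.15e-05). Of 18 kinases and ubiquitin ligases, 7 were higher and 4 lower at 2 h, and 7 higher and 5 lower at 6 h (medians 0.08 and 0.00). Irak2, a kinase of the Myd88 complex, rose by 0.76 ± 0.05 at 6 h (adjusted p = 2.93e-07), Traf3, a ubiquitin ligase of the interferon branch, rose by 0.70 ± 0.07 at 2 h (adjusted p = 9.71e-06), and Ikbke, a kinase of the same branch, fell by 0.75 ± 0.05 and 0.79 ± 0.05 (adjusted p = 5.92e-07 and 3.24e-07).

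Of 14 negative regulators, 4 were higher and 3 lower at 2 h, and 6 higher and 6 lower at 6 h (medians -0.01 and -0.15). Zc3h12a, an RNase that degrades cytokine mRNAs, rose by 0.47 ± 0.05 and 0.57 ± 0.05 (adjusted p = 1.12e-05 and 1.63e-06), and Tollip, an inhibitor of IRAK signalling, rose by 0.40 ± 0.05 and 0.52 ± 0.05 (adjusted p = 2.76e-05 and 2.03e-06). Of 9 transcription factors, 3 were higher and 3 lower at 2 h, and 4 were lower and 5 did not pass at 6 h, where the median was nonetheless 0.08 (-0.03 at 2 h). Rel and Nfkb1, subunits of NF-kB, rose by 0.57 ± 0.07 and 0.54 ± 0.07 at 2 h (adjusted p = 2.63e-05 and 9.26e-05). At 6 h Rel differed by 0.12 ± 0.07 and did not pass (adjusted p = 0.137), while Nfkb1 fell by 0.20 ± 0.07 (adjusted p = 0.0335). Irf7 and Irf5, factors downstream of endosomal TLRs, fell by 1.39 ± 0.12 and 0.30 ± 0.04 at 6 h (adjusted p = 9.01e-06 and 0.000102). The 15 interferon-stimulated genes moved 1 way: 14 were lower and 1 did not pass at 2 h, and 15 were lower at 6 h, with medians of -1.01 and -2.75. Usp18 and Stat2 fell by 1.21 ± 0.08 and 0.78 ± 0.06 at 2 h (adjusted p = 4.58e-07 and 6.52e-07), and Mx1 and Mx2 by 1.91 ± 0.07 and 2.96 ± 0.13 at 6 h (adjusted p = 8.56e-09 and 1.42e-08). The lists and the members were chosen by name, with earlier results of these data known, and are set beside each other without a test.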

How the data were processed

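Per the labels' protocols, RNA was isolated on RNeasy MinElute columns and mRNA libraries were non-stranded (TruSeq). The authors' deposited table holds estimated counts for all libraries, as whole numbers without depth scaling; RSEM 1.2.3, DESeq2 and build mm10 were used, per the submitters' processing notes. The aligner is not given in the sources used here, nor is the annotation. Rows name Ensembl transcripts, which were matched to GENCODE M21 genes of GRCm38: 37776 of 38887 rows, with 98.46% of the counts, belonged to 1 gene.

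Rows passing filterByExpr (minimum count 10, minimum total 15) were scaled by TMM (factors 0.974 to 1.03) and fitted over all 9 libraries with edgeR 4.0.16 in R 4.3.3 (glmQLFit, robust, and glmQLFTest, 1 mean per group, no covariate). SE was obtained as log2 fold change over root F, and SD is over 3 libraries. The fit was also run on counts simulated from its own estimates, with far fewer genes changed than were called here. That run cannot check the scaling or the error rate in these data. Alternatives used DESeq2 1.42.0, limma 3.58.1, other scalings and filters, equal depth, a replicate block and each library left out. Deviations of same-numbered libraries correlated at 0.133 to 0.16 at 6 h against untreated cells. The range was 0.0919 to 0.195 at 2 h and 0.0299 to 0.125 between the times. The limit was 0.1, and only at 6 h against untreated cells were all correlations above it. At 2 h against untreated cells they were 0.148, 0.0919 and 0.195 for replicates 1, 2 and 3. Whether the numbers pair libraries is thus not settled, and the main fit held no block at either time. The labels state no pairing, and libraries of different number were not compared in this way. The block was fitted over all 9 libraries.

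The members and lists were chosen with earlier results of these data known. Named were all members, the 2 list genes with the smallest p at each time, partner proteins (Ly96, Unc93b1, Cd180, Ly86, Cd36), the remaining TLR genes, and for members changed at least 2-fold the 2 nearest profiles among genes of at least 5 CPM on average, of which 1 is not reported here.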

Additional observations from a re-analysis of the deposited data

Results flagged for a closer look

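For 6 members the effect of LPA at 6 h differed from that at 2 h, by the test of the difference itself (LPA 6 h against LPA 2 h in edgeR's quasi-likelihood fit). The difference was -1.17 for Tlr2, which was higher than in untreated cells at 2 h, and -1.12 for Tlr1, which was lower at both times. It was -0.45 for Tlr3 and -0.32 for Tlr6. It was 0.33 for Cd14 and 0.18 for Tlr4, both of which were higher at both times. The Tlr4 difference did not pass without replicate 1 of LPA 2 h or of LPA 6 h.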

How the results depend on the processing

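Over 19 alternatives, 9 of which left out 1 library, 540 of 570 member values kept their direction and their side of the threshold, 17 no longer passed, 8 newly passed and 5 changed sign. The 5 sign changes were in differences that did not pass: Tlr6 at 2 h was -0.02 without LPA 2 h replicate 3 (range over left-out libraries -0.02 to 0.10), and between the times Tlr9 was -0.03 without LPA 2 h replicate 1 and -0.01 without LPA 6 h replicate 3 (range -0.03 to 0.11), and Tlr13 was -0.03 without LPA 2 h replicate 1 and -0.02 without LPA 6 h replicate 1 (range -0.03 to 0.10). The 8 values that newly passed were all Tlr2 at 6 h. With the replicate block, 8036 rows were called at 6 h against untreated cells, and 10 members (2 higher, 8 lower), and with it 6135 rows were called at 2 h and 7588 between the times; it changed no member's call other than that of Tlr2 at 6 h. Leaving out 1 library at a time gave 4352 to 5580 rows and 6 to 9 members called at 2 h, 6226 to 7896 rows and 8 to 10 members at 6 h, and 5767 to 7425 rows and 5 to 6 members between the times. The cause of these shifts was not tested. Another transcript length moved levels per kilobase: in untreated cells Tlr4 was at 16.5 with the longest transcript and 12.1 with joined exons (38.0 with the mean length), and Tlr13 at 69.6 and 65.7 (128.6).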
